A study of Mus musculus with 6 samples.

Results

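The insulin-like growth factors act through receptors at the cell surface. Described here in fetal mouse lung are 9 genes of ligands, receptors, adaptors and a carrier subunit. The ligand genes are Igf1 and Igf2, the receptor genes Igf1r, Igf2r, Insr and Insrr, and the adaptor genes Irs1 and Irs2. Igfals encodes the acid-labile subunit that holds circulating ligands in a large complex. A probe set was taken where its annotation gave exactly 1 gene symbol and that symbol was 1 of the 9. The rule found 15 of 22626 mouse probe sets, at least 1 for each of the 9 among 12393 genes, and no probe set with several symbols held 1 of the 9. Lungs of Igf1-/- embryos, which carry the inactivated gene on both chromosomes, were compared with lungs of Igf1+/+ embryos at 18.5 days post coitum (E18.5), with 3 arrays per genotype. Embryos of both genotypes came from matings of heterozygous parents on the C57BL/6J background, and the mutation was present in every cell of the body. By the methods, pups of this age were delivered by caesarean section and helped to breathe before the lungs were dissected. The values are RMA values on a log2 scale from MOE430A 2.0 arrays, on which a probe set is a group of short probes near the 3' end of a transcript, so that a difference of 1 is a doubling of signal. The methods describe separate RNA samples for each lung, whereas the sample descriptions speak of pooled lungs, so whether an array stands for 1 embryo or for a pool was not settled, and p values measure only the spread between these samples.

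IGF1 and IGF2 both bind the type 1 IGF receptor, a tyrosine kinase encoded by Igf1r, which phosphorylates the adaptors IRS1 and IRS2 and through them engages the PI3K and AKT pathway and the RAS and ERK pathway. The product of Igf2r binds IGF2 and carries it to lysosomes for degradation, and it also sorts lysosomal enzymes that bear mannose 6-phosphate. Insr encodes the insulin receptor, of which 1 splice form binds IGF2 with high affinity, and Insrr encodes a related receptor that senses alkaline conditions. In fetal mice Igf2 is expressed from the paternal chromosome only and Igf2r mainly from the maternal one.

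The arrays resembled each other closely, with a correlation between any pair of arrays of 0.992 to 0.996 and medians between 6.85 and 6.89. The markers of lung epithelium, which include the surfactant genes Sftpb and Sftpc, were bright on every array, with a summed linear level of 41606 to 47295 in Igf1-/- and of 41737 to 46624 in Igf1+/+ lungs. A pair of Igf1-/- arrays stood apart in genes of neighbouring organs. Replicate 2 had a summed level of 3155 for 7 liver markers, against 292 to 837 on the 5 other arrays, and replicate 3 had a summed level of 9405 for 8 heart markers, against 3472 to 4259 on the others. Genotypes were compared with limma on the full table, with Benjamini-Hochberg adjustment across its mouse probe sets. The study used false discovery rates of 0.20 and 0.10, so counts are given at both, and the words rose and fell are kept for an adjusted p under 0.10.

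None of the 15 probe sets rose or fell between genotypes. The lowest adjusted p belonged to an Igf1 probe set that was 1.5-fold lower in the Igf1-/- lungs, and the brightest Igf2 probe set had the largest difference in the other direction, at 1.43-fold higher. The receptor and adaptor genes differed by at most 0.14 on the log2 scale. At an adjusted p under 0.20, 1 of the 15 passed, in Igf1, against 2.6% of all mouse probe sets (1.62% lower and 0.981% higher in Igf1-/-). At an adjusted p under 0.10, 0 of the 15 passed, against 0.557% of all, and 4 had an unadjusted p under 0.05, against 12.5% of all (1 higher and 3 lower, against 6.27% and 6.28%). The arrays of both genotypes did not overlap at 4 of the 15, against 18% of all. Of the 15, 11 were higher and 4 lower in Igf1-/-, with a median difference of 0.05, and over all probe sets 58.2% were higher with a median of 0.03.

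**Figure D1:**
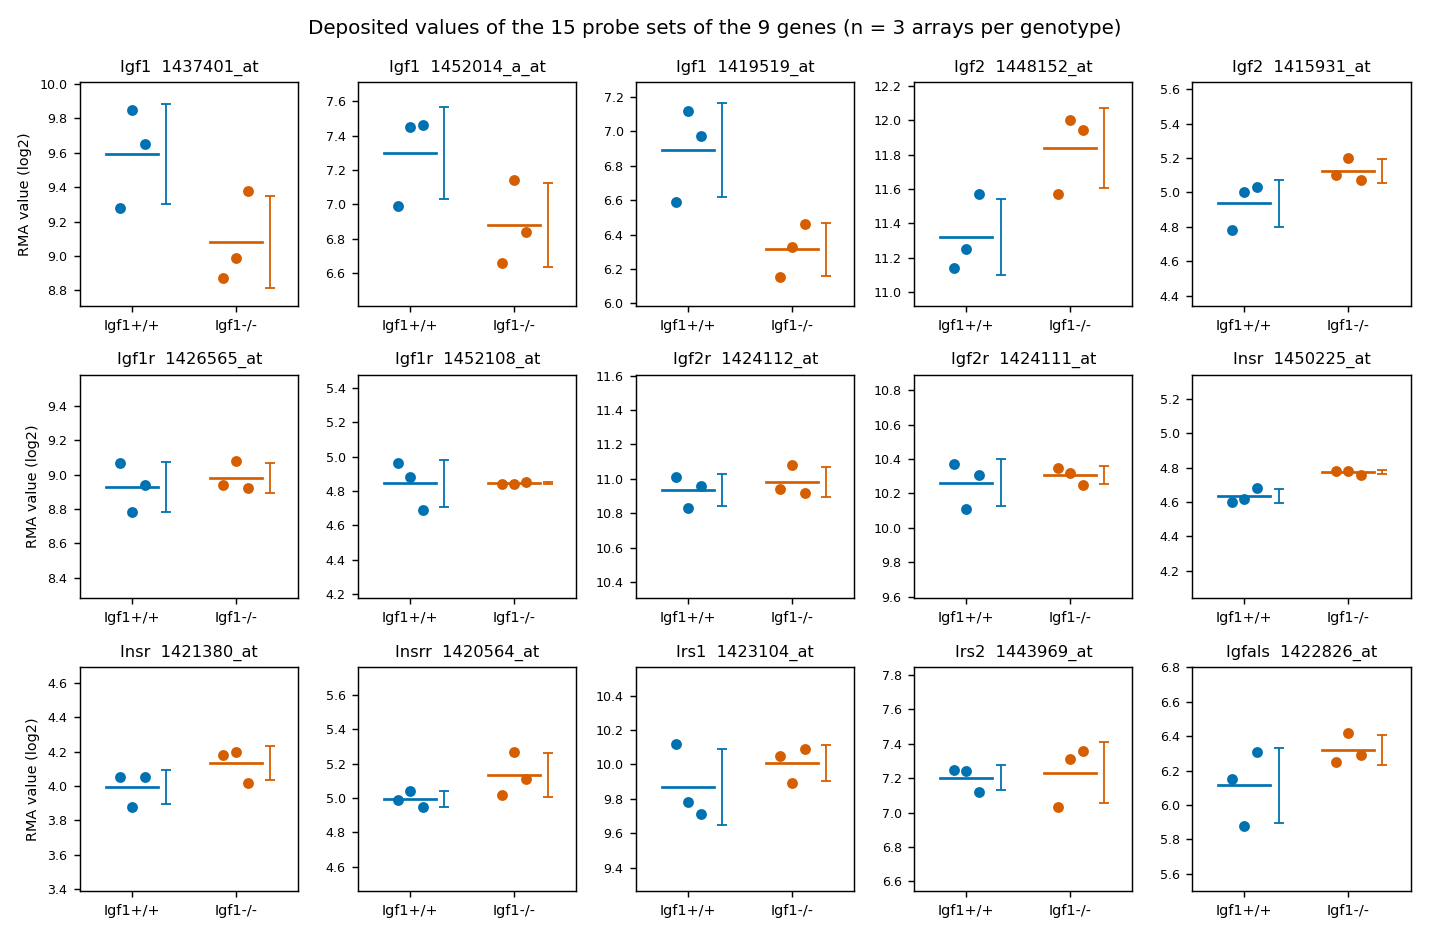
RMA values (log2, each vertical axis spanning the same range of log2 units) of the 15 probe sets in Igf1+/+ (blue) and Igf1-/- (orange) lungs, with 1 point per array, a line at the mean of 3 arrays and a bar of 1 SD to either side. Points of both genotypes are separate for Igf1 at 1419519_at, for Igf2 at both probe sets and for Insr at 1450225_at, and they overlap in the other 11 panels.

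Igf1, the inactivated gene, was measured by 3 probe sets, and all of them had a lower mean in the Igf1-/- lungs. At the brightest, 1437401_at, the values were 8.87, 8.99 and 9.38 in Igf1-/- replicates 1, 2 and 3 and 9.28, 9.85 and 9.65 in Igf1+/+ replicates 1, 2 and 3. Replicate 3 of Igf1-/- lay above replicate 1 of Igf1+/+, so the groups overlapped. The difference was -0.51 (SE 0.17, 95% confidence interval -0.89 to -0.13), or 1.43-fold lower, with an adjusted p = 0.267 in limma.

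At 1452014_a_at the Igf1 values were 6.66, 7.14 and 6.84 in Igf1-/- and 6.99, 7.45 and 7.46 in Igf1+/+ lungs. The groups overlapped here too, through replicate 2 of Igf1-/- and replicate 1 of Igf1+/+, and the difference was -0.42 (SE 0.16, adjusted p = 0.327). At the third probe set, 1419519_at, the values were 6.15, 6.33 and 6.46 in Igf1-/- and 6.59, 7.12 and 6.97 in Igf1+/+ lungs. All Igf1-/- arrays lay below all Igf1+/+ arrays at this probe set, which 7.26% of all probe sets also did, and the difference was -0.58 (SE 0.14, 95% confidence interval -0.90 to -0.27, adjusted p = 0.152). This adjusted p was 0.349, 0.301 and 0.298 without Igf1-/- replicate 1, 2 and 3, and 0.333 without Igf1+/+ replicate 2, so that the probe set did not pass 0.20 without any 1 of these 4 arrays.

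The 3 probe sets of Igf1 followed each other over the 6 arrays, with a correlation of 0.78 to 0.97 between pairs of them. Their mean per array was 7.23, 7.49 and 7.56 in Igf1-/- and 7.62, 8.14 and 8.02 in Igf1+/+ lungs. Every Igf1-/- array lay below every Igf1+/+ array in this mean, by 0.50 on average, with a two-sided exact permutation p = 0.1, the smallest that 3 against 3 arrays allow. The sources used here do not say where these 3 probe sets lie relative to the altered part of Igf1, so their signal says little about the genotype of an array or about functional transcript.

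Igf2 encodes the other ligand, the main IGF of fetal growth, and was bright in lungs of both genotypes. At 1448152_at its values, given to 3 decimals, were 11.571, 12.005 and 11.940 in Igf1-/- replicates 1, 2 and 3 and 11.138, 11.253 and 11.570 in Igf1+/+ replicates 1, 2 and 3. The groups did not overlap, but the margin was narrow, since Igf1-/- replicate 1 lay just above Igf1+/+ replicate 3. The difference was 0.52 (SE 0.14, 95% confidence interval 0.20 to 0.84), or 1.43-fold higher (1.14 to 1.79), with an adjusted p = 0.202 in limma, just outside the more lenient level.

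The second Igf2 probe set, 1415931_at, was dim, with values of 5.100, 5.196 and 5.074 in Igf1-/- and 4.778, 5.003 and 5.027 in Igf1+/+ lungs. Its groups did not overlap either, and its difference was 0.19 (SE 0.09, adjusted p = 0.433). Groups that do not overlap with Igf1-/- higher were found at 10.8% of all probe sets. The probe sets of Igf2 had a correlation of 0.84 over the 6 arrays, and their mean was 0.35 higher in Igf1-/- (two-sided exact permutation p = 0.1, the smallest possible). When all probe sets of each gene were averaged before the fit, the adjusted p over 12393 genes was 0.183 for Igf2 and 0.168 for Igf1.

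The Igf1-/- arrays with the highest Igf2 were the same ones that stood apart in the organ markers, as the plot of Igf2 beside the marker sums shows. Replicate 2 had the highest Igf2 and the highest liver markers, all 7 of which were on average higher in Igf1-/-, and Alb, the albumin gene, was at 10.81 on this array and at 6.10 to 8.67 on the others. Replicate 3 was next in Igf2 and had the highest heart markers, with Nppa, an atrial peptide gene, at 7.29 against 4.21 to 4.44. Replicate 1, low in both, had an Igf2 value of 11.571, level with the highest Igf1+/+ array at 11.570. The difference of 1448152_at was 0.44 without Igf1-/- replicate 2 and 0.47 without replicate 3. It was 0.25 (95% confidence interval -0.19 to 0.69) without both, a choice made after seeing the data that removes the arrays highest in Igf2, so that a smaller difference had to follow, and that leaves a single Igf1-/- array. The part of liver or heart RNA in the Igf2 difference was not tested. In whole lung RNA, fewer cells of a type and less RNA per cell cannot be told apart.

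**Figure D2:**
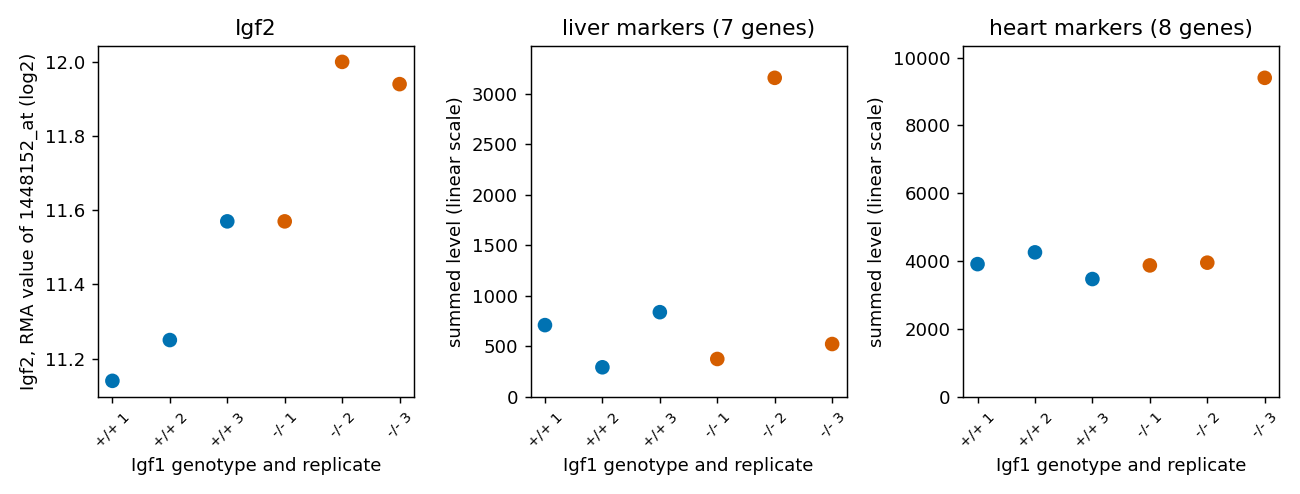
Igf2 at 1448152_at (RMA value, log2) and the summed linear levels of 7 liver and 8 heart marker genes on each of the 6 arrays, Igf1+/+ in blue and Igf1-/- in orange. The pair of arrays highest in Igf2 are Igf1-/- replicate 2, which has the highest liver sum (3155), and Igf1-/- replicate 3, which has the highest heart sum (9405).

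Mesenchymal cells of the fetal lung are a known source of IGF1. The markers of lung mesenchyme had a summed level of 24594, 24959 and 28485 in Igf1-/- and of 26176, 24703 and 26092 in Igf1+/+ lungs. The groups overlapped in this sum, and 0 of 10 genes passed an adjusted p of 0.20. By gene, 6 were higher and 4 lower in Igf1-/-, with a median of 0.02, and 2 were lower without overlap. Of 8 endothelial markers, 2 were higher and 6 lower, with a median of -0.13. Groups did not overlap for 3 of them, all lower, against 18.8% of all genes in either direction, and 0 passed 0.20. The summed macrophage markers lay between 6588 and 8774 in Igf1-/- and between 7212 and 9539 in Igf1+/+ lungs, a sum in which Lyz2 (difference -0.33) was the brightest gene. By gene, 5 of the 8 macrophage markers were higher in Igf1-/-, with a median of 0.16. Groups did not overlap for 3 of the 8, as was the case for 18.8% of all genes in either direction. These 3 were Csf1r (0.32, adjusted p = 0.232), Tyrobp (0.36, adjusted p = 0.243) and Adgre1 (0.15, adjusted p = 0.442). The 3 lower markers were Lyz2, Cd14 (-0.11) and Mrc1 (-0.11). Erythroid sums were 869 to 1194 in Igf1-/- and 1744 to 2143 in Igf1+/+ lungs without overlap. Of the 5 erythroid genes, 2 fell, Slc4a1 (-1.64, adjusted p = 0.000146) and Alas2 (-0.87, adjusted p = 0.0754). The other 3 had differences of 0.10 to 0.14 (Klf1, Epb42 and Hba-a1). Of these, Hba-a1 (mean of 3.99 over the arrays) and Epb42 (4.42) were near the lowest value on the arrays (3.1). Such dim values say little about these transcripts. The other Epb42 probe set, also dim, differed by -0.10. The part of these cell types in the values of the 9 genes was not tested.

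Set against each other on the same array, the ligand mRNAs lay further apart in the Igf1-/- lungs. Levels of different probe sets cannot be compared, but the distance from Igf1 (1437401_at) up to Igf2 (1448152_at) can be followed across arrays. It was 2.70, 3.01 and 2.56 in Igf1-/- and 1.85, 1.40 and 1.92 in Igf1+/+ lungs. Every Igf1-/- array exceeded every Igf1+/+ array, and the mean distance was 1.03 larger, or 2.04-fold (two-sided exact permutation p = 0.1, the smallest possible). This ratio was chosen after the values had been seen.

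**Figure D3:**
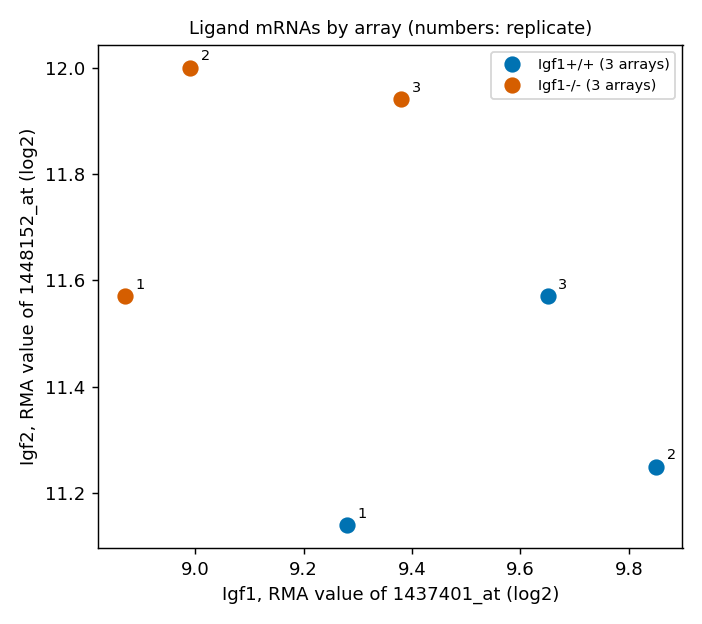
Igf2 at 1448152_at against Igf1 at 1437401_at (RMA values, log2), 1 point per array with its replicate number, Igf1+/+ in blue and Igf1-/- in orange. The Igf1-/- arrays lie to the upper left, at 8.87 to 9.38 for Igf1 and 11.571 to 12.005 for Igf2, and the Igf1+/+ arrays to the lower right, with overlap along the Igf1 axis.

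The receptor that transmits the signal of both ligands, Igf1r, did not differ beyond the spread of the arrays. Its brighter probe set, 1426565_at, had values of 8.94, 9.08 and 8.92 in Igf1-/- and 9.07, 8.78 and 8.94 in Igf1+/+ lungs. The difference was 0.05 (SE 0.09, 95% confidence interval -0.16 to 0.26, adjusted p = 0.857). At 1452108_at the values were 4.84, 4.84 and 4.85 in Igf1-/- and 4.96, 4.88 and 4.69 in Igf1+/+ lungs, a ratio of 0.997 (0.870 to 1.14, adjusted p = 0.987). This second probe set was dim, and it had a correlation of only 0.18 with the first over the 6 arrays.

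Igf2r, whose product removes IGF2, was bright and even across arrays. At 1424112_at its values were 10.94, 11.08 and 10.92 in Igf1-/- and 11.01, 10.83 and 10.96 in Igf1+/+ lungs, a difference of 0.04 (95% confidence interval -0.15 to 0.23, adjusted p = 0.856). At 1424111_at they were 10.35, 10.32 and 10.25 against 10.37, 10.11 and 10.31, a difference of 0.04 (-0.16 to 0.24, adjusted p = 0.865). Igf1+/+ replicate 2 was the lowest array at both probe sets, and the groups overlapped at both. The confidence intervals of the 4 probe sets of Igf1r and Igf2r ran from 0.870-fold to 1.20-fold, and differences within that range are not excluded by these arrays.

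The insulin receptor gene Insr and the related Insrr had low values throughout. Insr at 1450225_at was 4.78, 4.78 and 4.76 in Igf1-/- and 4.60, 4.62 and 4.68 in Igf1+/+ lungs, with groups that did not overlap and a difference of 0.14 (SE 0.07, 95% confidence interval -0.02 to 0.29, adjusted p = 0.456). At 1421380_at it was 4.18, 4.20 and 4.02 against 4.05, 3.88 and 4.05, a difference of 0.14 (SE 0.09, adjusted p = 0.531). Insr thus differed by a small amount in the same direction at both probe sets, neither of which passed the test. Insrr at 1420564_at was 5.02, 5.27 and 5.11 in Igf1-/- and 4.99, 5.04 and 4.95 in Igf1+/+ lungs, a difference of 0.14 (-0.05 to 0.33, adjusted p = 0.528). Dim probe sets were more often higher in Igf1-/-: of the 11313 probe sets under the array median, 65.4% were, against 58.2% of all probe sets.

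The IRS adaptors, which couple the receptors to PI3K, showed overlapping groups. Irs1 at 1423104_at was 10.05, 9.89 and 10.09 in Igf1-/- and 10.12, 9.78 and 9.71 in Igf1+/+ lungs. Its highest array was a control, replicate 1, and the difference was 0.14 (SE 0.12, 95% confidence interval -0.12 to 0.41, adjusted p = 0.643). Irs2 at 1443969_at was 7.03, 7.31 and 7.36 in Igf1-/- and 7.25, 7.24 and 7.12 in Igf1+/+ lungs. Igf1-/- replicate 1 was the lowest of the 6 arrays for Irs2 and replicate 3 the highest, and the difference was 0.03 (-0.19 to 0.26, adjusted p = 0.911). Over the 9 receptor and adaptor probe sets, 8 were higher in Igf1-/-, the confidence intervals ran from 0.870-fold to 1.33-fold and the lowest adjusted p was 0.456.

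Igfals, which is expressed mainly by liver after birth, was 6.25, 6.42 and 6.29 in Igf1-/- and 6.15, 5.88 and 6.31 in Igf1+/+ lungs at 1422826_at. Igf1+/+ replicate 2 was the lowest array and the groups overlapped. The difference was 0.21 (SE 0.11, 95% confidence interval -0.05 to 0.46, adjusted p = 0.487). The liver markers were also lowest in Igf1+/+ replicate 2 (292) and highest in Igf1-/- replicate 2 (3155), which had the highest Igfals value, and their part in Igfals was not tested.

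**Figure D4:**
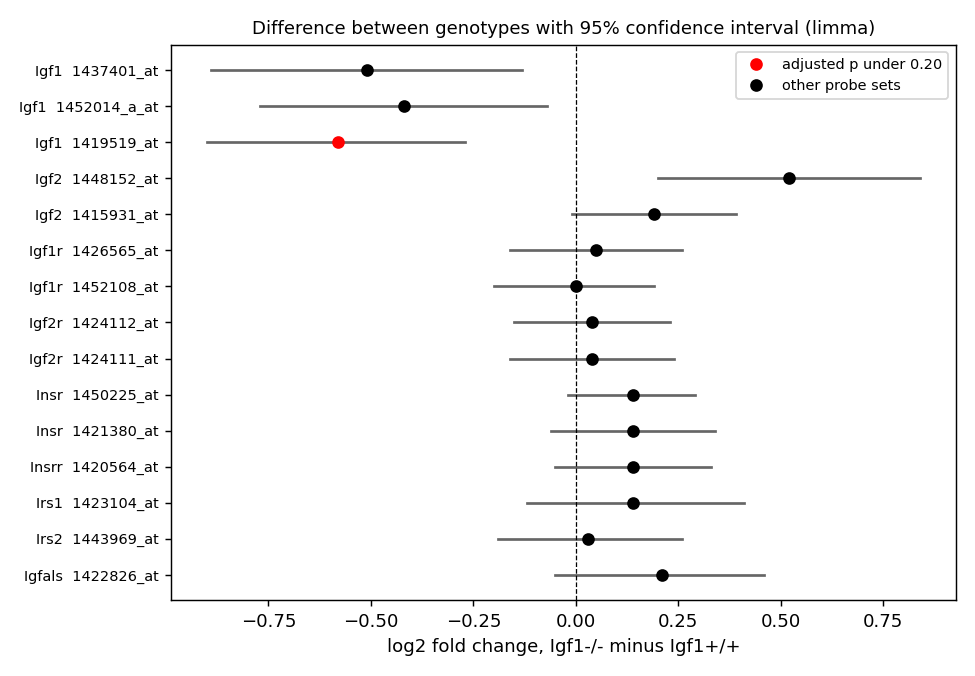
Difference between genotypes (log2 fold change, Igf1-/- minus Igf1+/+) of the 15 probe sets, with points for the estimate and bars for the 95% confidence interval from limma (3 arrays per genotype). The probe set in red, Igf1 at 1419519_at, is the 1 with an adjusted p under 0.20, and the bars of all receptor, adaptor and Igfals probe sets cross 0.

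In the wider pathway, 77 other genes were listed by role and 61 of them had a probe set of 1 symbol, which was taken at its brightest. None of the 61 rose or fell. At an adjusted p under 0.20, 1 passed, against 2.72% of all 12393 genes taken in the same way, and 39 were higher and 22 lower in Igf1-/-, with a median of 0.05.

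The gene that passed was Pappa, which encodes a protease that cuts IGFBP4 and so frees the ligands. Pappa at 1427633_a_at was 6.53, 6.91 and 6.93 in Igf1-/- and 6.31, 6.03 and 5.92 in Igf1+/+ lungs. The groups did not overlap, and the difference was 0.70 (SE 0.13, 95% confidence interval 0.40 to 1.01), or 1.63-fold higher, with an adjusted p = 0.102. The difference kept most of its size when single arrays were left out, at 0.62 to 0.83. It was 0.44 without Igf1-/- replicates 2 and 3 together, which leaves a single Igf1-/- array. Those replicates were the highest in Pappa, so a smaller difference had to follow. The adjusted p was above 0.20 without Igf1-/- replicate 2 (difference 0.64, adjusted p = 0.248), Igf1-/- replicate 3 (0.63, adjusted p = 0.301) or Igf1+/+ replicate 2 (0.67, adjusted p = 0.219), and under 0.10 without Igf1-/- replicate 1 (0.83, adjusted p = 0.0828) or Igf1+/+ replicate 3 (0.62, adjusted p = 0.0924).

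Among the 11 measured genes of IGF binding and release, 8 were higher and 3 lower in Igf1-/-, with a median of 0.13. The 3 lower ones, named after their values were seen, did not overlap between groups at their brightest probe sets, as was the case for 18.8% of all genes in either direction. Htra1, a secreted protease, had a difference of -0.50 (adjusted p = 0.241), Igfbp6, which prefers IGF2, of -0.35 (adjusted p = 0.311), and Igfbp7, a low-affinity binding protein, of -0.32 (adjusted p = 0.201). Of the other Igfbp7 probe sets, 1437804_at differed by 0.01 with overlap and 1423585_at by -0.21 without it. Igfbp4, also named after its values were seen as the substrate of the Pappa protease, differed by 0.13 at its brightest probe set, 1437405_a_at, with values of 11.40, 11.28 and 11.35 in Igf1-/- and 11.06, 11.24 and 11.35 in Igf1+/+ lungs (adjusted p = 0.604). Its groups overlapped.

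In the insulin and growth hormone axis, 0 of 9 genes passed 0.20. Socs3, a feedback inhibitor of cytokine receptors, was 8.10, 7.82 and 7.95 in Igf1-/- and 8.98, 8.96 and 7.95 in Igf1+/+ lungs at 1455899_x_at, a difference of -0.67 (SE 0.24, adjusted p = 0.319). Igf1+/+ replicate 3 was level with the Igf1-/- lungs at this probe set. At the other Socs3 probe sets the groups did not overlap, with differences of -0.82 at 1456212_x_at (adjusted p = 0.214) and -0.26 at 1416576_at (adjusted p = 0.343). Socs2, an inhibitor of growth hormone signalling, differed by 0.22 (adjusted p = 0.498).

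Downstream of the receptors, differences were small. Of 16 receptor-proximal adaptors and phosphatases, 8 were higher and 8 lower, and the furthest from 0 were the adaptor genes Sh2b2 at 0.24 (adjusted p = 0.255) and Gab2 at 0.23 (adjusted p = 0.335). In the PI3K and AKT arm 11 of 14 genes were higher, and 58.2% of all mouse probe sets were. Akt1, a kinase gene, at 0.17 (adjusted p = 0.508) and Tsc2, which encodes an inhibitor of mTOR signalling, at 0.15 (adjusted p = 0.548) lay furthest from 0. In the RAS and ERK arm, where 4 of 9 listed genes were measured, 3 of 4 were lower at their brightest probe set. The furthest were the kinase genes Map2k1 at -0.22 (adjusted p = 0.319) and Map2k2 at -0.14 (adjusted p = 0.525). The direction was not the same at every probe set. Map2k2 differed by 0.09 at 1460636_at, and Nras by -0.08 at its brightest probe set and by -0.09 and 0.07 at its others. No gene of these 3 groups passed 0.20, and the arrays measure mRNA, not the phosphorylation through which these proteins signal.

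For Igf2 mRNA itself, the binding protein genes Igf2bp1 and Igf2bp3 differed by -0.15 (adjusted p = 0.692) and 0.06 (adjusted p = 0.810). In the mannose 6-phosphate sorting route that Igf2r serves, 4 of 4 genes were higher, the furthest being Gnptab, which encodes an enzyme that builds the mannose 6-phosphate tag, at 0.18 (adjusted p = 0.629), and Gga2, an adaptor of Golgi sorting, at 0.09 (adjusted p = 0.760). None of these passed the test.

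**Figure D5:**
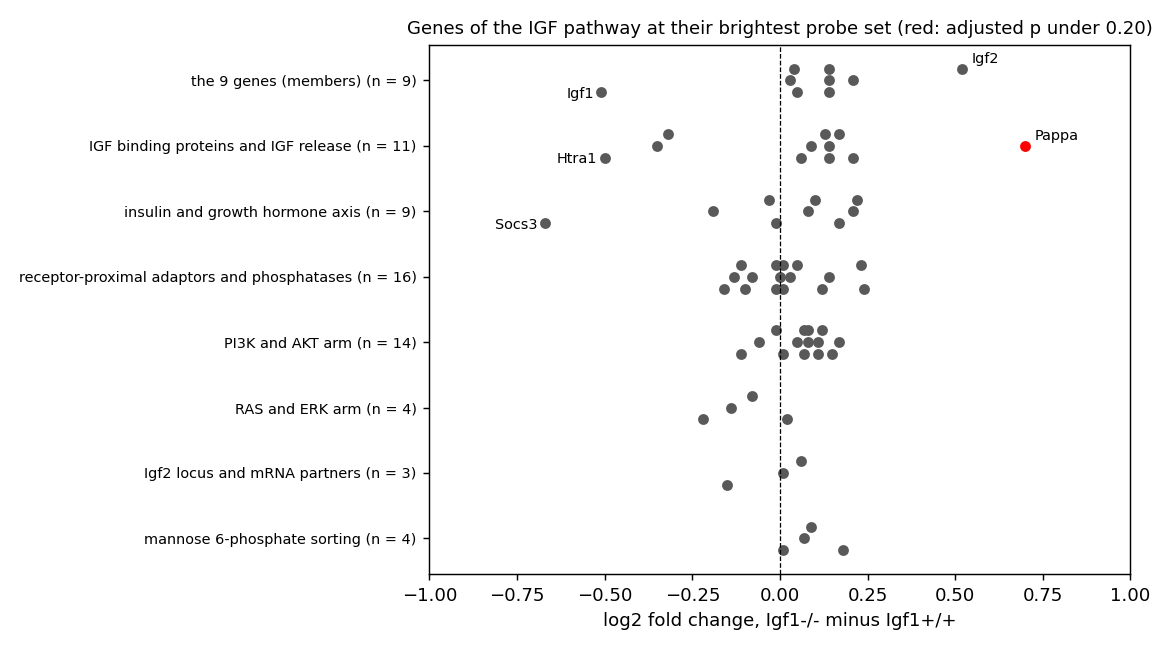
Difference between genotypes (log2 fold change, Igf1-/- minus Igf1+/+) of the 9 genes and of 61 other genes of the pathway, 1 point per gene at its brightest probe set, by role. Pappa, in red, is the 1 gene with an adjusted p under 0.20. Right of 0 lie 11 of 14 genes of the PI3K and AKT arm, and left of it 3 of 4 of the RAS and ERK arm. No gene of these arms passed 0.20, and 58.2% of all mouse probe sets were higher in Igf1-/-.

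The genes whose values followed the ligands most closely were read from the correlation over the 6 arrays. Probe sets with 1 symbol and an SD over the arrays of at least 0.20 were compared, and each gene was named once. For Igf1 at 1437401_at, of 2836 probe sets compared, the closest were of Cep55 (0.973), Aurkb (0.960), Kif11 (0.946), Incenp (0.942) and Nusap1 (0.936). For Igf2 at 1448152_at, of 2838 probe sets compared, the closest were of H2-Aa (0.994), Plbd1 (0.985), Bmp1 (0.980), Fpgs (0.974) and Pou3f4 (0.971). Bmp1, for example, was 9.56, 10.05 and 9.83 in Igf1-/- and 9.17, 9.38 and 9.56 in Igf1+/+ lungs, with the same lowest and highest arrays as Igf2. With 6 arrays of 2 genotypes, these correlations share the genotype difference and the same arrays, and they are a description.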

How the data were processed

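The authors deposited RMA log2 values (version not stated), computed over 12 arrays, 6 of lung and 6 of cochlea, so each lung value also depends on the cochlear arrays. Groups and replicate numbers came from the labels. Of 22690 probe sets, 64 controls were left out. The annotation gave 1 symbol to 20380 of the 22626 others, several to 691 and none to 1555, and 20351 of the symbols were found in RefSeq (GRCm38.p6) by Entrez identifier. A linear model with genotype as its only term was fitted to all mouse probe sets with limma 3.58.1 in R 4.3.3, with Benjamini-Hochberg adjustment. The fit was tested on simulated data. Precision is limited by the number of arrays, and no batch is given in the sources used here. The genes, lists, tests and the level at which rose and fell are used were chosen with earlier results of these data known. The named genes were the 9, at all probe sets, and in each pathway list those past an adjusted p of 0.20 or otherwise the 2 with the largest difference, and the 5 genes most like each ligand. Marker genes, Htra1 and the Igfbp genes stand outside this rule and were named after their values were seen. Marker sums add the linear values of the brightest probe sets. Alternatives were the replicate number as a block, other normalizations, filters, variance estimates and weights, the SAM statistic, control probe sets kept, other summaries per gene, a level of 0.05 and leaving out each array. SAM was implemented anew. Its false discovery rate was first taken from the median of the falsely called counts and then, after the counts were seen, from their mean, and both are reported.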

Additional observations from a re-analysis of the deposited data

How the results depend on the processing

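Over 18 settings, 280 differences of single probe sets were computed again, of which 244 kept their direction and their side of the threshold, 13 lost the 0.20 level (or 0.05 where that was used), 12 gained it and 11 changed sign. Where only the variance estimate, the statistic, the level or the set of probe sets tested was changed, the difference stayed the same. Its direction could not change in those settings. Of 114 counts past a threshold, 54 were within 1.5 times the reported count, 29 were lower and 31 higher. The cause of the changes in these counts was not tested. With arrays weighted by quality, 2325 probe sets passed 0.20 and 628 passed 0.10, against 588 and 126, among them 4 and 2 of the 15 (1437401_at: -0.59, adjusted p = 0.134; 1452014_a_at: -0.49, adjusted p = 0.136) and 6 and 3 pathway genes. Without moderation of variances, 7 and 1 passed, with 0 of the 15 and 0 pathway genes (1419519_at: -0.58, adjusted p = 0.46). At 0.05, 54 passed, with 0 of the 15 (1419519_at: -0.58, adjusted p = 0.152) and 0 pathway genes. With a variance trend and robust estimates, 2 of the 15 and 2 pathway genes passed 0.20, and 204 probe sets and 1 pathway gene passed 0.10. With each array centred on its median, 2 of the 15 and 2 pathway genes passed 0.20 and 1 pathway gene passed 0.10. With SAM, 590 passed 0.20 and 56 passed 0.10 when the mean of the falsely called counts was used, with 1 of the 15 and 2 pathway genes at 0.20. With the median, which was run first, 1071 and 293 passed, with 2 of the 15 and 4 pathway genes. The sources used here do not say which of these the study used, and the mean was adopted after the counts of the median had been seen, so neither should be preferred on these data. At the brightest probe set of each gene 0 members passed 0.20, and with the mean over probe sets 2 passed.

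Deviations from the genotype means had correlations of -0.04, -0.23 and -0.14 between same-numbered arrays. The highest, 0.28, was between Igf1-/- 3 and Igf1+/+ 2. Such correlations cannot show whether same-numbered samples were littermates or were processed together, so whether the replicate numbers pair the samples was not settled. With the replicate number as a block, 3 of the 15 passed 0.20 and 1 passed 0.10 (1452014_a_at: -0.42, adjusted p = 0.188; Igf2 at 1448152_at: adjusted p = 0.128). Igf2 at 1448152_at also passed 0.20 with arrays centred (0.188), with dim probe sets left out (0.183), with the variance trend (0.155) and with quality weights (0.0886).

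Leaving out 1 array gave 88 to 2888 probe sets past 0.20 and 45 to 710 past 0.10, the highest without Igf1+/+ replicate 3 and the lowest without Igf1-/- replicate 3. Of the 15, 0 to 3 passed 0.20 and 0 to 1 passed 0.10, and of the pathway genes 0 to 8 and 0 to 2. The median of the 15 was 0.04 to 0.12. Igf1 at 1419519_at ranged from -0.73 to -0.47 (adjusted p = 0.088 to 0.349). Igf2 at 1448152_at ranged from 0.43 to 0.65 (adjusted p = 0.0765 to 0.532), and passed 0.20 without Igf1+/+ replicate 3 (0.0765) and without Igf1-/- replicate 1 (0.198), but not without Igf1-/- replicate 2 (0.409) or 3 (0.476) or Igf1+/+ replicate 1 (0.532) or 2 (0.404). Signs changed for Igf2r at 1424112_at (single arrays left out: -0.01 to 0.08; -0.01 without Igf1-/- replicate 2 and -0.01 without Igf1+/+ replicate 2), Igf2r at 1424111_at (-0.03) and Igf1r at 1426565_at (-0.03) without Igf1+/+ replicate 2, for Igf1r at 1452108_at, whose difference was a ratio of 0.997 (0.05 without Igf1+/+ replicate 1, 0.01 without Igf1+/+ replicate 2 and 0.00, rounded, with arrays centred; single arrays left out: -0.08 to 0.05), and for Irs2 (single arrays left out: -0.03 to 0.14; 0.00, rounded, without Igf1-/- replicate 2, -0.03 without Igf1-/- replicate 3, -0.01 without Igf1+/+ replicate 3 and -0.17 without Igf1-/- replicates 2 and 3 together). None of these had passed a test. Pappa passed 0.10 with arrays centred (0.09), the variance trend (0.0748) and quality weights (0.0438), and did not pass 0.20 without moderation (0.406). Without Igf1-/- replicates 2 and 3 together, which leaves 1 array whose variance is assumed to be that of the controls, 11 probe sets passed 0.20 and 4 passed 0.10, with 0 of the 15 (1419519_at: -0.75, adjusted p = 0.788) and 0 pathway genes.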

Other observations

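The mutant allele of Igf1 lies on a chromosome with many other genes, and 10 genes on each side of Igf1 in the RefSeq order with a probe set of 1 symbol were read out after the other results had been seen. Of these 20 neighbours, 13 were higher and 7 lower in Igf1-/-, with a median difference of 0.04 and a range of -0.39 to 0.27. None passed an adjusted p of 0.20 in limma (lowest adjusted p = 0.254), and 5 of the 20 had an unadjusted p under 0.05, against 12.7% of all genes.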
